A study of Homo sapiens with 9 samples.

Results

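The miRNA hairpins described here are 7 that were listed as made without the nuclear cropping enzyme DROSHA, followed after knockdown of ERH in human cells. They are 6 mirtrons (hsa-mir-877, hsa-mir-1224, hsa-mir-1225, hsa-mir-1226, hsa-mir-1229 and hsa-mir-1236) and hsa-mir-484, which has a capped precursor. They were taken by name from a count table of 1485 hairpins, and all 7 were present. In HEK293E, 5 of the 7 averaged 10 counts or more and were tested in a fit over all 773 hairpins at that level. In those cells 0 of 5 passed the test for a change under siERH, in a table where 40% of the 773 hairpins tested did.

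Most miRNAs are cut in a pair of steps: Microprocessor, a complex of DROSHA and its RNA-binding partner DGCR8, crops the hairpin from a long primary transcript, and DICER then removes the loop. A mirtron skips the first cut, because the hairpin is itself a short intron that the spliceosome releases and a debranching enzyme linearises. hsa-mir-484 skips it in another way: transcription is described as starting at the hairpin, so that the 5′ end of the precursor carries a cap. ERH is a small conserved protein known to bind DGCR8 and to help Microprocessor process weak hairpins next to strong ones in a cluster. Hairpins that bypass Microprocessor are set beside the others here, under knockdown of ERH and not under loss of Microprocessor itself. That each member needs no DROSHA was assumed from the list and not tested, since none of the 9 libraries is from cells that lack it. Filling an intron does not by itself show it.

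Small RNA of miRNA size was sequenced from 9 libraries. HEK293E, a derivative of a human embryonic kidney line, gave 7 libraries, with RNA taken on day 5. Replicate 1 held siGFP, siControl and siERH-3, 1 library each, and replicate 2 held the same 3 siRNAs and siERH-5. siGFP and siControl are control siRNAs, and siERH-3 and siERH-5 are different siRNAs against ERH. The leukaemia line K562 gave 1 library with siGFP and 1 with siERH-5, harvested on day 4. All cells were transfected, no untransfected cells were included, and both cell lines are otherwise unmodified as far as the labels say. The libraries held between 2609929 and 3320017 counts. ERH mRNA is not measured by these libraries, so the knockdown itself could not be checked here. Nothing in the labels says that the replicates came from separate cultures, and p-values measure the spread between these libraries only.

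In the GENCODE 29 annotation of GRCh38, all 6 mirtron hairpins filled an annotated intron exactly, with 0 bases between hairpin end and splice site on either side. Those abundant enough to test are printed here, because their ends are what sets them apart: capitals mark the first and last 2 bases, the GU and AG of an intron. Sequences are from RefSeq (GRCh38.p14), 5′ to 3′ on the transcribed strand.
hsa-mir-877, chr6:30584332-30584417, plus strand, 86 bases, an intron of ABCF1: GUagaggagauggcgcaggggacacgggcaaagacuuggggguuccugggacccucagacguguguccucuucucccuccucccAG
hsa-mir-1226, chr3:47849555-47849629, plus strand, 75 bases, an intron of DHX30: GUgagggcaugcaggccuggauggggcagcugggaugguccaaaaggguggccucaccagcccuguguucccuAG
hsa-mir-1229, chr5:179798278-179798346, minus strand, 69 bases, an intron of MGAT4B: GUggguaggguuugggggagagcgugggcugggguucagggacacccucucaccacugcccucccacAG
hsa-mir-1224, chr3:184241405-184241489, plus strand, 85 bases, an intron of VWA5B2: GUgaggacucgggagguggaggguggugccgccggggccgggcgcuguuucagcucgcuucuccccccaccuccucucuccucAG

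The remaining pair have the same ends. hsa-mir-1225 (chr16:2090195-2090284, minus strand, 90 bases) fills an intron of PKD1. hsa-mir-1236 (chr6:31956839-31956940, minus strand, 102 bases) fills an intron of NELFE and also overlaps an exon of another NELFE transcript. Of the 1168 hairpins of the count table that RefSeq holds, 31 (2.65%) start with GU and end with AG, and all 6 mirtrons are among them. The host genes are unrelated in function: DHX30 encodes an RNA helicase, MGAT4B a glycosyltransferase, NELFE a subunit of a factor that pauses RNA polymerase, and PKD1 polycystin-1. hsa-mir-484 (chr16:15643294-15643372, plus strand, 79 bases) lies in an exon of NDE1, which encodes a protein that works with dynein. Its hairpin begins 27 bases downstream of the furthest upstream start among 12 annotated NDE1 transcripts, and the others start downstream of the hairpin. None of these annotated starts is at the first base of the hairpin.

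The mature strands of the 5 testable hairpins follow, with the seed (bases 2 to 8) in capitals, since the seed is what groups miRNAs into target families.
hsa-miR-484: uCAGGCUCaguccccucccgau
hsa-miR-877-5p: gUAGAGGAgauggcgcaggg
hsa-miR-877-3p: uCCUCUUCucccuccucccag
hsa-miR-1226-5p: gUGAGGGCaugcaggccuggaugggg
hsa-miR-1226-3p: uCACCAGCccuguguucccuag
hsa-miR-1229-5p: gUGGGUAGgguuugggggagagcg
hsa-miR-1229-3p: cUCUCACCacugcccucccacag
hsa-miR-1224-5p: gUGAGGACucgggaggugg
hsa-miR-1224-3p: cCCCACCUccucucuccucag
The 5p strands of these 4 mirtrons begin at the first base of the intron, and the 3p strands end at its last base. None of the 12 mature strands of the 6 mirtrons shares its seed with another mature miRNA of the 1168 hairpins of the table that RefSeq holds. Seeds of the other hairpins were not compared. hsa-miR-484 shares its seed CAGGCUC with hsa-miR-3155a and hsa-miR-3155b. The count table gives 1 value per hairpin, so the 5p and 3p strands could not be told apart in what follows.

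The hairpins spanned a wide range of abundance. Levels are given as CPM, counts scaled to 1000000 for each library, after TMM scaling, which sets library sizes by the bulk of hairpins, within the 7 HEK293E libraries. hsa-mir-484 averaged 5755 CPM, rank 49 of the 773 hairpins tested. hsa-mir-877 followed with 1049 CPM (rank 157), hsa-mir-1226 with 273 (rank 230), hsa-mir-1229 with 43.5 (rank 391) and hsa-mir-1224 with 5.47 (rank 672). The last pair were below the count minimum, hsa-mir-1236 with 3.09 CPM (9.29 counts a library) and hsa-mir-1225 with 0.395 CPM (1.29 counts a library). In this order, hsa-mir-1224 and hsa-mir-1236 were the only neighbours whose ranges over the 7 libraries overlapped.

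**Figure D1:**
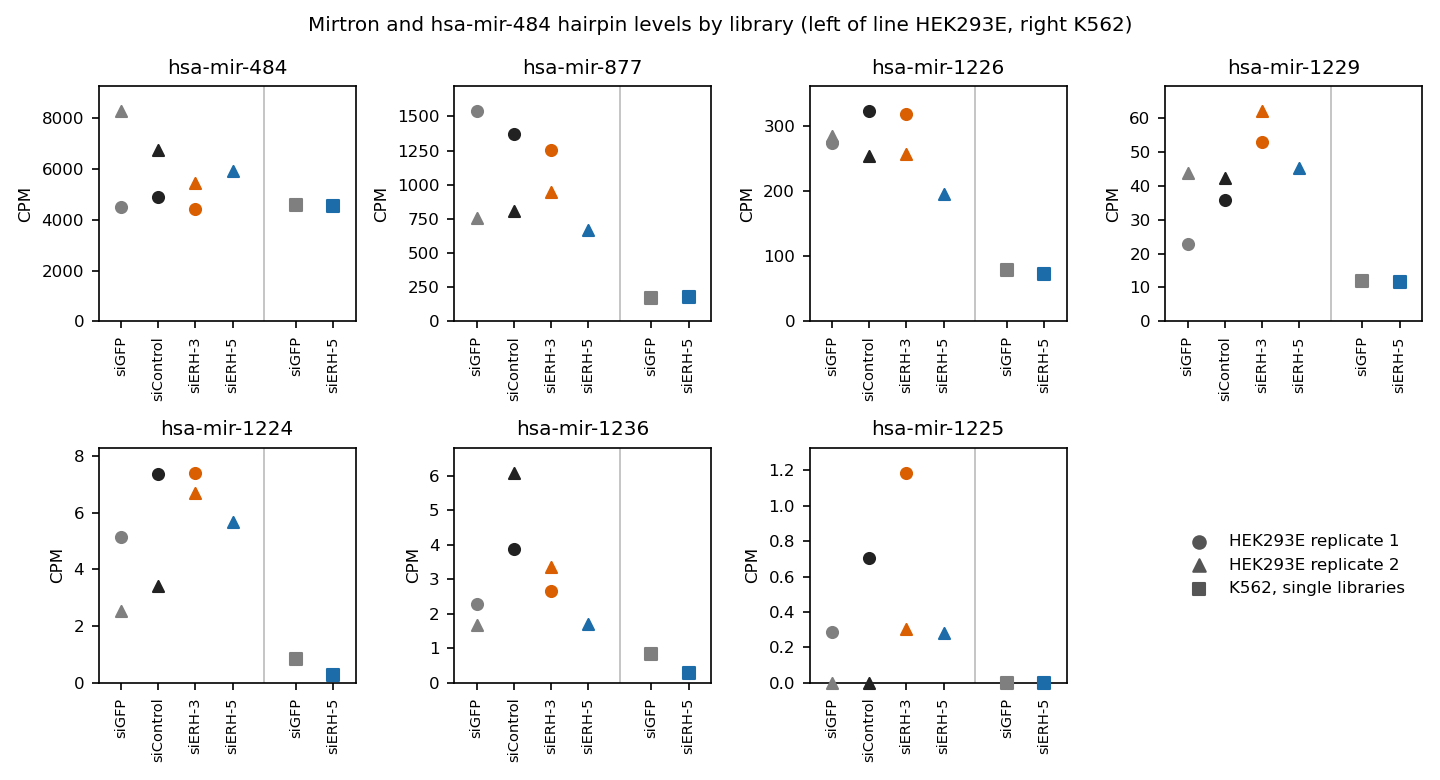
Level of each of the 7 hairpins in all 9 libraries, in CPM on a linear axis from 0, with HEK293E left of the line and K562 (scaled separately) right of it; each point is 1 library, colours mark the siRNA and shapes the replicate. hsa-mir-1229 is the hairpin whose 3 siERH libraries (45.2 to 61.9 CPM) all lie above the 4 control libraries (22.9 to 43.9 CPM) in HEK293E.

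hsa-mir-484, the capped hairpin, had 4529 CPM in siGFP and 4914 in siControl of replicate 1, and 8286 and 6754 in those of replicate 2. Under siERH-3 it had 4435 CPM in replicate 1 and 5437 in replicate 2, and under siERH-5 it had 5928 in replicate 2. The replicates stood further apart than the siRNAs did: all 4 replicate 2 libraries were above all 3 replicate 1 libraries, and siERH and control libraries overlapped. Against the controls of its own replicate, each of the 3 siERH libraries was below both. Of all 773 hairpins, 24.1% were below both controls in all 3 libraries. The fitted log2 fold change of siERH over control was -0.22 ± 0.22 (SE, 3 against 4 libraries), with a 95% interval from -0.70 to 0.27 and an adjusted p of 0.457 by edgeR's quasi-likelihood test. This fit, like those of the other members below, does not use the pairing by replicate. With the replicate as a block it was -0.28 (edgeR adjusted p = 0.0910). By limma on log2(RPM + 1), without TMM scaling, it was 0.0050, but the median of all hairpins was 0.20 there. In the first fit that median was -0.01, so the sign of hsa-mir-484 depends on the scaling. In the replicate 2 libraries alone (siERH-3 and siERH-5 against siGFP and siControl) its log2 fold change was -0.36 with an edgeR adjusted p of 0.0439, where 12.9% of 770 hairpins were called lower.

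hsa-mir-877, the most abundant mirtron here, had 1538 CPM in siGFP and 1373 in siControl of replicate 1, and 758 and 805 in those of replicate 2. Under siERH-3 it had 1253 CPM in replicate 1 and 949 in replicate 2, and 670 under siERH-5. Here too the replicate separated the libraries, in the opposite sense to hsa-mir-484: all 3 replicate 1 libraries were above all 4 replicate 2 libraries. The siERH libraries went both ways, below both controls of their replicate in 2 cases and above both in siERH-3 of replicate 2. The log2 fold change was -0.22 ± 0.29 (95% interval -0.87 to 0.42, edgeR adjusted p = 0.571), and in the replicate 2 libraries alone it was 0.096.

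hsa-mir-1226 showed the smallest spread among controls. It had 275 CPM in siGFP and 323 in siControl of replicate 1, and 285 and 255 in those of replicate 2. The siERH-3 libraries had 318 and 257 CPM in replicates 1 and 2, inside the control range, and the siERH-5 library was lowest with 196. The log2 fold change was -0.14 ± 0.20 (95% interval -0.59 to 0.30, edgeR adjusted p = 0.600).

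hsa-mir-1229 was the only member whose arms did not overlap, 1 of 5, against 44.6% of the 773 hairpins. Controls had 22.9 CPM (siGFP) and 35.8 (siControl) in replicate 1, and 43.9 and 42.2 in replicate 2. Under siERH-3 it had 52.8 CPM in replicate 1 and 61.9 in replicate 2, and under siERH-5 it had 45.2. All 3 siERH libraries were thus above all 4 controls, siERH-5 by a small margin. The log2 fold change was 0.56 ± 0.25 (95% interval 0.017 to 1.11), with an adjusted p of 0.0964 by edgeR's quasi-likelihood test (0.0444 before adjustment), so it did not pass. It passed as higher when libraries were scaled by their totals (0.77, edgeR adjusted p = 0.0218), where 27.4% of hairpins were called higher, a scaling that moved the median of all hairpins up by 0.20 on the log2 scale. Every fold change here is relative to the bulk of hairpins, and a shift of all miRNAs together could not be checked.

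hsa-mir-1224 was counted between 6 and 25 times a library. In replicate 1 it had 5.14 CPM with siGFP, 7.38 with siControl and 7.41 with siERH-3. In replicate 2 it had 2.53 CPM with siGFP, 3.42 with siControl, 6.71 with siERH-3 and 5.68 with siERH-5. The siERH libraries were close to the replicate 1 siControl library and above the other 3 controls. Like hsa-mir-1229, it was above both controls of the same replicate in 3 of 3 siERH libraries, as 32.1% of all hairpins were. The log2 fold change was 0.49 ± 0.35 (95% interval -0.29 to 1.26, edgeR adjusted p = 0.299).

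The mirtrons left out of the main fit were near the limit of detection. hsa-mir-1236 was counted 4 to 16 times in the control libraries and 6 to 11 times in the siERH libraries, 39 and 26 counts in all. hsa-mir-1225 was counted 3 times over the 4 control libraries and 6 times over the 3 siERH libraries, with 0 counts in both replicate 2 controls. Of the alternative fits, 3 held hsa-mir-1236, with log2 fold changes from -0.97 to -0.52 (edgeR adjusted p from 0.118 to 0.468). Only 1 held hsa-mir-1225, with 0.98 (edgeR adjusted p = 0.516). Neither was called, and no difference was detectable for either at this depth.

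Over the 5 tested members, edgeR's quasi-likelihood test called 0, 1 had an unadjusted p under 0.05 (48% of all hairpins did), and DESeq2 also called 0 (42.3% of all hairpins). Of all 773 hairpins, 125 were lower (16.2%) and 184 higher (23.8%). The median log2 fold change of the members was -0.14, and that of all tested hairpins was -0.01. In size, without regard to sign, the members' median change was 0.22 and that of all tested hairpins 0.56. With the replicate as a block, 0 of 5 were called again, against 48.6% of all hairpins. The edgeR adjusted p of that fit was 0.0619 for hsa-mir-1229, 0.0910 for hsa-mir-484 and 0.112 for hsa-mir-1224. It was 0.609 for hsa-mir-1226 and 0.781 for hsa-mir-877.

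**Figure D2:**
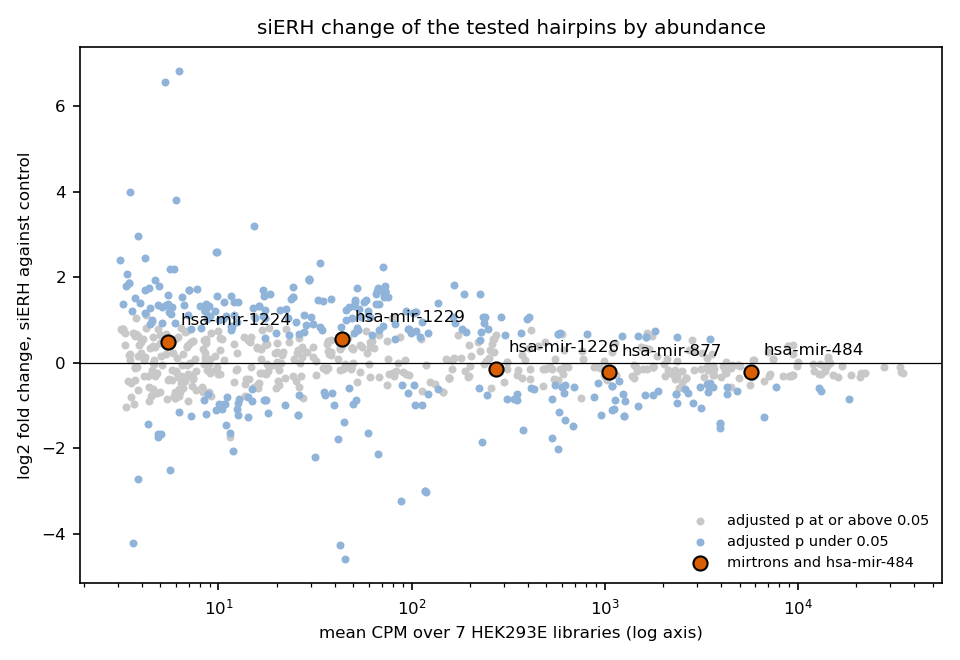
Log2 fold change of siERH over control in HEK293E (3 against 4 libraries) for the 773 tested hairpins against mean CPM on a log axis; blue points have an adjusted p under 0.05 by edgeR, grey points do not, and the 5 tested members are ringed in orange. The members lie between -0.22 and 0.56, and none of them is blue.

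Each member was then set beside the other tested hairpins within 2-fold of its mean CPM. The 66 hairpins near hsa-mir-484 had a median log2 fold change of -0.18 (quartiles -0.47 and 0.0028), and 24.2% of them were called. Around hsa-mir-877, 80 hairpins had a median of -0.23 (quartiles -0.68 and 0.10), and 47.5% were called. hsa-mir-484 and hsa-mir-877 were therefore at the middle of their neighbours, with 32 of 66 and 40 of 80 below them.
Around hsa-mir-1226, 85 hairpins had a median of 0.05 (quartiles -0.35 and 0.55, 37.6% called). The 153 hairpins near hsa-mir-1229 had a median of 0.38 (quartiles -0.15 and 1.08, 51.0% called), and the 223 near hsa-mir-1224 had 0.22 (quartiles -0.37 and 1.01, 17 called lower and 61 higher). All 5 members lay within the quartiles of their neighbours. Over the 603 hairpins of like abundance to any member, 39.8% were called, the median was 0.07, and the median size of change was 0.57 against 0.22 for the 5 members. With so few members these are descriptions, and no difference from the other hairpins was tested.

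**Figure D3:**
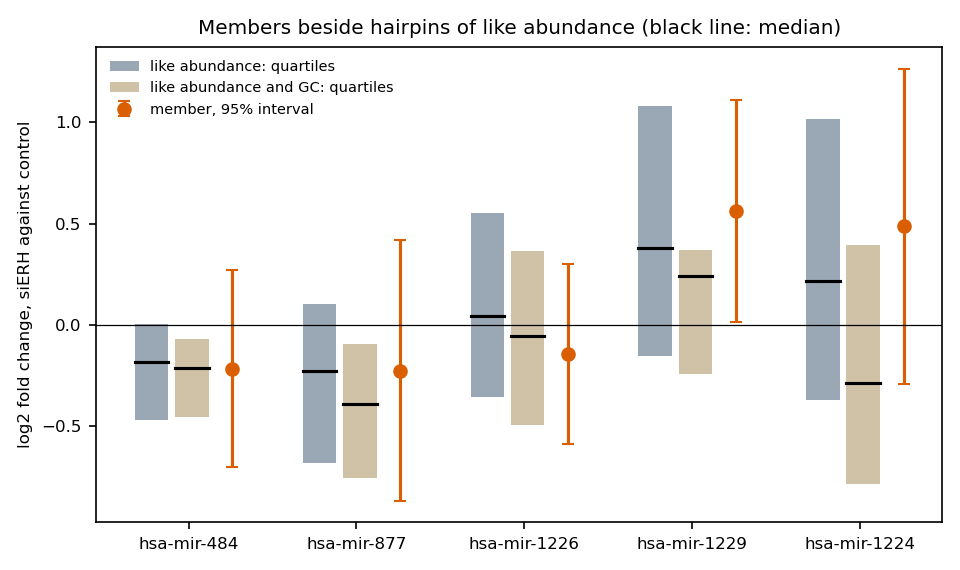
Log2 fold change of siERH over control in HEK293E for each tested member (orange point, 95% interval of the fit) beside the quartiles of other hairpins within 2-fold of its mean CPM (grey bars) and of those that also have a GC content within 10 percentage points (tan bars); black lines are medians. The members are within all 5 grey bars, and hsa-mir-1229 and hsa-mir-1224 are above their tan bars.

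GC content also moved with the siERH change. The 7 members are GC-rich, from 54.9% to 74.4% with a median of 64%, where the 772 tested hairpins with a sequence position had a median of 51.1%. Split by GC content into 4 groups of like size, the group lowest in GC (up to 41.8%) had a median log2 fold change of 0.68, and 49.5% of them were called higher. In the highest group (61.4% and over), which holds hsa-mir-877, hsa-mir-1224, hsa-mir-1226 and hsa-mir-1229, the median was -0.15, with 20.8% called lower and 7.81% higher. hsa-mir-484 is in the next group down, whose median was -0.17.
Among hairpins alike in both abundance and GC content, the picture differed between members. For hsa-mir-484, 30 such hairpins had a median of -0.21, for hsa-mir-877, 44 had -0.39, and for hsa-mir-1226, 32 had -0.05, with the member inside the quartiles each time. hsa-mir-1229 was above the upper quartile (0.37) of 48 such hairpins and higher than 40 of them. hsa-mir-1224 was above the upper quartile (0.39) of 54 and higher than 45. Over the 205 hairpins in these sets the median was -0.14, the median size of change 0.41, and 30.7% were called.

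**Figure D4:**
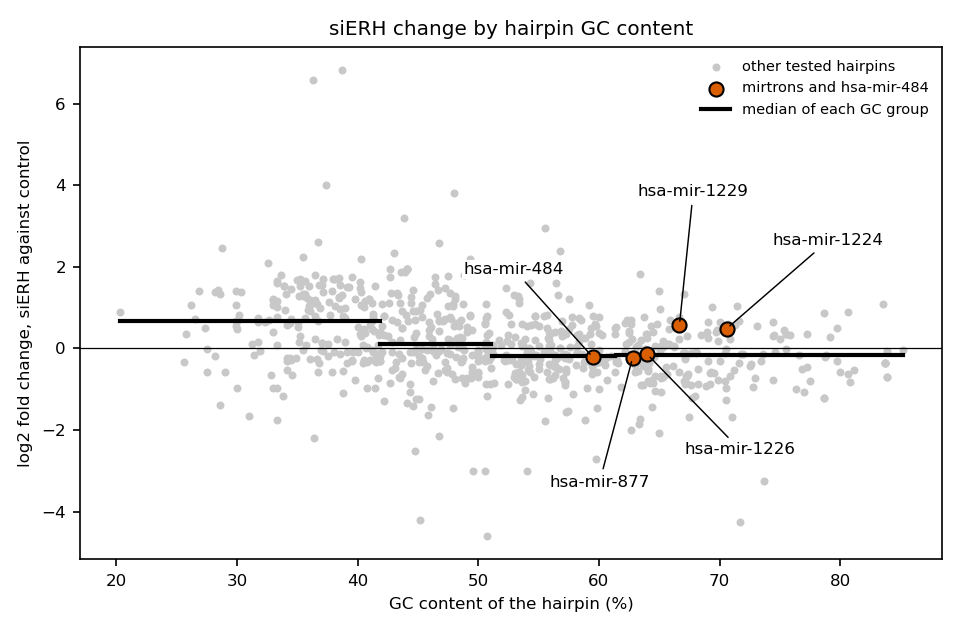
Log2 fold change of siERH over control in HEK293E against the GC content of the hairpin in percent, for the tested hairpins (grey) and the 5 tested members (orange); black lines give the median of each of the 4 GC groups. The medians are 0.68 in the lowest group and -0.15 in the highest, where 4 of the 5 members lie.

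The ratio of members within a library does not depend on how libraries are scaled. Of the 10 pairs among the 5 members, hsa-mir-1226 to hsa-mir-1229 is an example: its log2 ratio was 3.01 ± 0.46 in controls (SD, n = 4) and 2.26 ± 0.29 under siERH (SD, n = 3), a difference of -0.76 (two-sided exact permutation p = 0.0571, 0.143 after Benjamini-Hochberg adjustment over the 10 pairs). Within replicate 1 the same difference was -0.79, and within replicate 2 it was -0.56. The 6 pairs that set hsa-mir-484, hsa-mir-877 or hsa-mir-1226 against hsa-mir-1229 or hsa-mir-1224 differed by -0.76 to -0.83. Each was negative within both replicates, from -0.17 to -1.10 in replicate 1 and from -0.27 to -1.47 in replicate 2. These 6 set members with a negative fold change against members with a positive one in the same libraries. Their overall sign thus follows from the grouping, and pairs that share hairpins are not separate results. The other 4 differed by -0.03 to 0.02 over all libraries, but hsa-mir-1229 to hsa-mir-1224, for example, by 0.62 within replicate 1 and -0.77 within replicate 2. None passed a permutation that exchanged libraries across the replicates, which does not use the pairing. The smallest p that its 35 splits allow is 0.0286. A single pair at that p would not pass after adjustment over the 10 pairs, so the lack of a pass says little. These pairs were formed after the levels had been seen.

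The siRNAs against ERH were also looked at singly. For siERH-3 alone (2 against the same 4 controls, 759 hairpins tested), 0 of 5 members were called and 30.6% of all hairpins were, by edgeR. hsa-mir-1229 had a log2 fold change of 0.68 (edgeR adjusted p = 0.0952), and with the replicate as a block it was 0.70 and was called higher (edgeR adjusted p = 0.0220; 26.4% of hairpins were called higher in that fit). The other members were between -0.30 for hsa-mir-484 and 0.59 for hsa-mir-1224.
The single siERH-5 library of HEK293E was compared with the mean of the replicate 2 controls, with no replicate check. The log2 ratios of CPM + 1 were -0.34 for hsa-mir-484, -0.22 for hsa-mir-877, -0.46 for hsa-mir-1226, 0.07 for hsa-mir-1229 and 0.75 for hsa-mir-1224. None reached 2-fold, 0 of 5, where 22.8% of 773 hairpins did. The 95% counting interval of hsa-mir-1229 ran from -0.23 to 0.37 and that of hsa-mir-1224 from -0.12 to 1.99. Counting intervals cover counting error only, not the spread between cultures.

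Control siRNAs gave the background. Between siControl and siGFP (2 against 2 libraries), edgeR called 0 of 5 members and 0% of 730 hairpins, with 24 hairpins at an unadjusted p under 0.05 and 4 called by DESeq2. With the replicate as a block, edgeR called 18.2% of the 730 and again 0 of 5 members. The members' log2 fold changes lay between -0.13 (hsa-mir-484) and 0.43 (hsa-mir-1224), and hsa-mir-1229 was at 0.24.

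**Figure D5:**
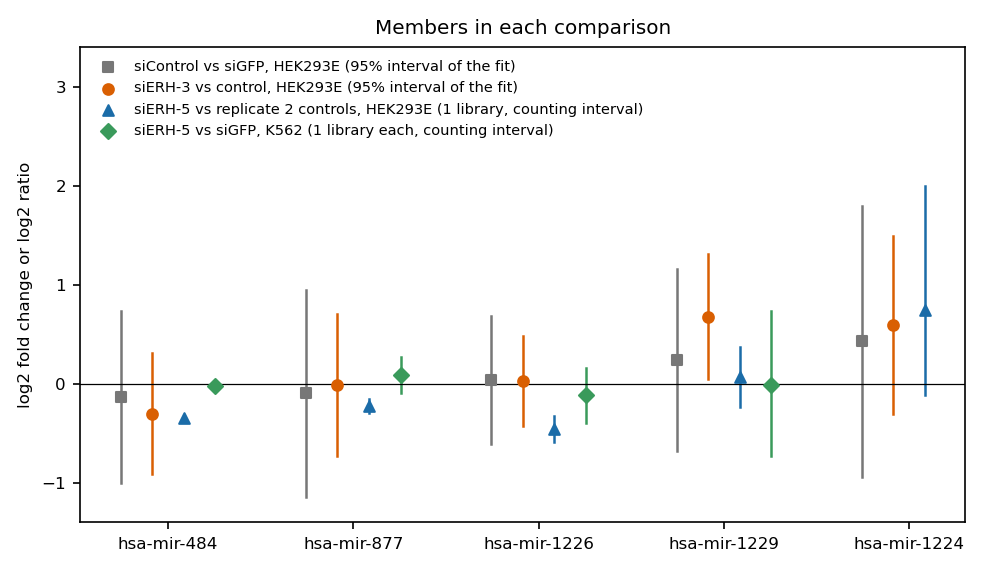
Log2 fold change or log2 ratio of each tested member in 4 comparisons: siControl against siGFP (grey squares) and siERH-3 against control (orange circles) in HEK293E with the 95% interval of the fit, siERH-5 against replicate 2 controls in HEK293E (blue triangles) and siERH-5 against siGFP in K562 (green diamonds) with the counting interval of single libraries. hsa-mir-1224 has no K562 value because it had 2 and 1 counts there.

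In K562 hsa-mir-877, hsa-mir-1226 and hsa-mir-1229 were below all 7 HEK293E libraries, and hsa-mir-484 was not. Per 1000000 counts of the library total, hsa-mir-877 had 154 in siGFP and 199 in siERH-5 of K562, against 689 to 1657 over the 7 HEK293E libraries. hsa-mir-1226 had 71.5 and 80.1 against 213 to 348, and hsa-mir-1229 had 10.7 and 13.0 against 24.6 to 65.4. hsa-mir-1224 and hsa-mir-1236 were each counted 2 times in siGFP and 1 time in siERH-5 of K562, and hsa-mir-1225 was not counted, which allows up to 1.15 and 0.904 per 1000000 counts. hsa-mir-484 had 4159 and 4995, overlapping the HEK293E range of 4663 to 7528. Not every mirtron was scarcer: hsa-mir-1237, from a wider list given further on, had 17.2 and 13.3 against 8.69 to 21.0 in HEK293E. With 2 K562 libraries, made in an experiment of their own, the cell line and the experiment cannot be told apart.

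Between siERH-5 and siGFP in K562, 4 members could be compared, and 0 of 4 reached 2-fold, where 16.9% of 646 hairpins did. hsa-mir-484 had 16584 counts under siERH-5 and 10870 under siGFP, a log2 ratio of CPM + 1 of -0.02 (95% counting interval -0.05 to 0.02). hsa-mir-877 had 660 and 403 counts and a ratio of 0.08 (-0.10 to 0.27). hsa-mir-1226 had 266 and 187 counts and a ratio of -0.12 (-0.39 to 0.16), and hsa-mir-1229 had 43 and 28 counts and a ratio of -0.01 (-0.73 to 0.73). The HEK293E value of hsa-mir-1229, 0.56, is inside that last interval. hsa-mir-877, hsa-mir-1226 and hsa-mir-1229 lay within the quartiles of hairpins within 2-fold of their K562 level, and hsa-mir-484 lay above the upper quartile of its 56 neighbours (-0.05). Over the 361 hairpins of like abundance in K562 the median log2 ratio was 0.13, and for the 4 members it was -0.01.

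A wider list of 9 hairpins described as bypassing Microprocessor holds 8 further mirtrons and hsa-mir-320a, another capped precursor. All 9 were present and 4 were tested in HEK293E, of which 1 was lower (16.2% of all 773 hairpins were), 0 were higher (23.8%), and the median was -0.42. The one that fell was hsa-mir-1237, which fills an intron of RPS6KA4. It had 13.9 to 22.1 CPM in controls and 8.24 to 13.0 under siERH, with a log2 fold change of -0.80 ± 0.27 (edgeR adjusted p = 0.0366). The call was lost without siControl replicate 1 (edgeR adjusted p = 0.107), without siERH-3 replicate 2 (0.139), without siERH-5 replicate 2 (0.122) and without siGFP replicate 1 (0.0569), with the trend over GC content removed (0.0707) and with library totals (0.127). It was called in 9 of the 21 fits that tested it. hsa-mir-1227 had -0.58 (edgeR adjusted p = 0.149) and hsa-mir-1228 had 0.44 (0.485). hsa-mir-320a, at 8731 to 18500 CPM in controls and 10126 to 12817 under siERH, had -0.27 (0.432). Counting members and wider list together, 1 of 9 tested hairpins was called, as lower. Of all 773 hairpins, 16.2% were lower and 40% were called in either direction.

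Across the 7 HEK293E libraries, the hairpins whose log2(CPM + 1) followed hsa-mir-484 most closely, of 764 compared, were hsa-mir-3912 (Pearson r = 0.98), hsa-mir-503 (0.97) and hsa-mir-29b-1 (0.96). Those closest to hsa-mir-877 were hsa-mir-1250, hsa-mir-4738 and hsa-mir-6743 (each 0.94). None of these 6 was called under siERH. The 7 libraries fall into 2 replicates, which the levels of hsa-mir-484 and of hsa-mir-877 each separate, and the values are the highest of many, so they are given as a description.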

How the data were processed

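Small RNA counts were analysed for 9 libraries. Counts per hairpin are as deposited by the authors, and 2336 blank cells were read as 0. A table of normalised values (RPM) deposited by the authors equals (count + 1) over (total + 1485), scaled to 1000000. The submitters' processing notes name cutadapt, Bowtie2, bedtools and the hg38 build. Versions, and how reads that match several hairpins were counted, are not given in the sources used here. Spike-in RNAs named in the labels' protocols were not used here, so values are relative to the bulk of hairpins, and a shift of all miRNAs together could not be checked.

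Hairpins averaging 10 counts or more were fitted with edgeR 4.0.16 (TMM, quasi-likelihood test, R 4.3.3), and p-values were Benjamini-Hochberg adjusted over all hairpins tested (threshold 0.05). DESeq2 1.42.0, limma 3.58.1 on log2(RPM + 1) or log2(RPM + 10), library totals, other filters, a GC trend, the replicate block and leaving out each library were alternatives. On simulated data with 200 of 773 hairpins changed 2-fold in the siERH comparison, 144 were called, 0 with the wrong sign, with 7 false calls. The simulated libraries were independent, with no replicate effect or GC trend, so these rates need not hold for the real libraries. Single libraries have exact (Clopper-Pearson) 95% counting intervals. PCR reads are not independent molecules.

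Same-numbered HEK293E libraries deviated together (r = 0.69, 0.48 and 0.52 for the 3 pairs of siRNAs), and the labels' experimental group has the same number, so the replicate number pairs them. Positions and GC content came from GENCODE 29 (1480 of 1485 hairpins matched) and sequences from RefSeq (1168 matched). The members and the wider list were chosen with earlier results of these data known. Named hairpins were all members, the tested ones of the wider list, and the 3 most correlated with hsa-mir-484 and with hsa-mir-877; 5 others named by intron position were chosen after their values were seen. Comparisons by pairs, by GC content and by intron position were added after seeing the data.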

Additional observations from a re-analysis of the deposited data

Results flagged for a closer look

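For hsa-mir-1229 every library of a cell line lay on 1 side, and the sides differed: all 3 siERH libraries of HEK293E were above all 4 controls, and in K562 the log2 ratio of siERH-5 to siGFP was -0.00813, from 43 and 28 counts. The K562 value is close to 0, the difference between the cell lines was not tested, and the K562 counting interval, -0.73 to 0.73, holds the HEK293E value of 0.56. hsa-mir-877 also had opposite signs, -0.22 in HEK293E and 0.08 in K562, but its HEK293E libraries went both ways. Of 7 sets of control libraries, 1 for each member, 0 had a library standing apart from the others, where chance gives about 1 in 20.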

How the results depend on the processing

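The counts of members called in HEK293E were 0 lower and 0 higher without each of the 7 libraries in turn. Under siERH 1 member, hsa-mir-1229, was called higher with library totals (0.77), limma on log2(RPM + 1) (0.76) or on log2(RPM + 10) (0.63), and the replicate block fitted together with a GC correction (0.64). Of all 773 hairpins, these fits called 212, 218, 206 and 163 higher, in the same order. In replicate 2 only, 1 member was called lower (hsa-mir-484), as were 99 of 770 hairpins. The replicate block alone gave 0 of 5 called, with log2 fold changes of -0.28 for hsa-mir-484, -0.06 for hsa-mir-877, -0.11 for hsa-mir-1226, 0.53 for hsa-mir-1229 and 0.65 for hsa-mir-1224. For siERH-3, 1 was called higher (hsa-mir-1229) with library totals, either limma fit and the replicate block. Of all 759 hairpins, those fits called 168, 178, 169 and 200 higher, in the same order. Values of hsa-mir-484, hsa-mir-877 and hsa-mir-1226 that had not passed turned sign. Library totals, limma on log2(RPM + 1) and limma on log2(RPM + 10) also moved the median of all hairpins. The shifts were 0.20, 0.21 and 0.15 under siERH, 0.18, 0.20 and 0.15 under siERH-3, and -0.13, -0.11 and -0.088 between controls. Signs in those fits include that shift. Under siERH, hsa-mir-1226 was 0.039 with library totals, 0.022 with limma on log2(RPM + 1) and 0.022 with log2(RPM + 10), hsa-mir-484 was 0.0050 in both limma fits, and hsa-mir-877 was 0.096 in replicate 2 only and 0.040 with block and GC trend. Under siERH-3, hsa-mir-1226 was -0.037 by DESeq2 and with its size factors and -0.058 with no filter. hsa-mir-877 there was 0.13 with library totals, 0.22 and 0.21 by limma, 0.14 over hairpins of at least 100 CPM and 0.048 with the block. Between controls, hsa-mir-1226 was -0.081 with library totals, -0.097 and -0.094 by limma and -0.013 over hairpins of at least 100 CPM. Leaving out 1 library gave these ranges: under siERH, hsa-mir-1226 -0.30 to 0.027; under siERH-3, hsa-mir-1226 -0.12 to 0.19 and hsa-mir-877 -0.22 to 0.19; between controls, hsa-mir-1224 -0.23 to 1.10, hsa-mir-1226 -0.15 to 0.20, hsa-mir-1229 -0.15 to 0.75, hsa-mir-484 -0.49 to 0.35 and hsa-mir-877 -0.53 to 0.53. The siERH-5 median of the members was 0.075 with library totals, against -0.22. The members' median minus that of like-abundance hairpins was -0.22, and -0.0072 when GC content was matched too; against the controls of its replicate it was -0.0066 and 0.21 for siERH-3 and -0.31 for siERH-5, so no direction is drawn from it.

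Over all hairpins, those lower under siERH numbered 125, and 67 with library totals, 58 and 59 by limma, 45 over hairpins of at least 100 CPM, 188 with block and GC trend, and 76 to 130 without 1 library. Those higher numbered 184, and 121 with the GC trend removed and 37 over 100 CPM. The lower share of calls was 40.5%, and 24.0% with library totals, 21.0% and 22.3% by limma and 55.5% with the GC trend removed. For siERH-3, 87 were lower, and 48 with library totals, 43 and 45 by limma, 31 over 100 CPM, 142 with the block and 19 to 102 without 1 library, and 145 were higher, and 31 over 100 CPM and 42 to 152 without 1 library. Between controls, 0 were lower and 0 higher, 2 and 2 by DESeq2 and with no filter, 61 and 72 with the block, and 0 to 1 higher without 1 library. The causes of these shifts were not tested. Depth limits hsa-mir-1224, hsa-mir-1225 and hsa-mir-1236, with at most 25 counts a library.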

Other observations

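Hairpins were also grouped by how their ends sit on annotated introns, within 2 bases, whatever their name. Of 1485 hairpins, 23 fill an intron at both ends, 14 of them members or on the wider list. In HEK293E 11 of the 23 were tested, and 2 were lower under siERH (18.2%) and 0 higher. Of the 673 tested hairpins with neither end at an intron end, 15.6% were lower and 26.9% higher (42.5% called). The share called lower was thus similar, and the share called higher was not. The 11 were also richer in GC (median 70.6% against 49.4%), and of all tested hairpins in the highest GC group 7.81% were called higher. The part of GC content in this difference was not tested beyond the GC trend. Library totals gave 0 lower and 1 higher of the 11, the GC trend removed gave 1 and 0, and both block and GC trend gave 1 and 1. Besides hsa-mir-1237, the lower one was hsa-mir-6765 in an intron of JAG2, which encodes a Notch ligand. It had 10.6 to 23.1 CPM in controls and 6.82 to 8.24 under siERH, a log2 fold change of -1.07 ± 0.30 (edgeR adjusted p = 0.0156). The call was lost without siERH-3 replicate 1 (edgeR adjusted p = 0.0539), without siERH-5 replicate 2 (0.0610) and with library totals (0.0600).

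A larger group, 200 hairpins, has only the 3p end at the end of an intron. This is the layout of tailed mirtrons, in which splicing sets 1 end of the hairpin and the other is trimmed. In this group 84 were tested, 18 were lower and 1 was higher, with a median log2 fold change of -0.45, against 105 lower and 181 higher of 673 and a median of 0.09 for hairpins with neither end at an intron end. The group was GC-rich (median 62.8% against 49.4%) and scarce (median 7.33 CPM against 65.4 CPM), and the part of these values in its change was not tested beyond the GC trend. Removing the trend over GC content gave 18 lower and 0 higher. With the replicate block 22 were lower and 1 higher, and with library totals 6 were lower and 1 higher. Leaving out 1 library gave 9 lower without either siERH-3 library, 11 without siERH-5 replicate 2 or siControl replicate 1, and up to 23 without siGFP replicate 2. The 3 that fell furthest were hsa-mir-6775 (SLC7A5, -1.67), hsa-mir-6762 (TPCN1, -1.67) and hsa-mir-6841 (NEFL, -1.64), all between 2.17 and 16.2 CPM as group means. The 1 that rose was hsa-mir-369, at the end of an intron of the noncoding gene MEG9 (1.71). These hairpins were picked after their values were seen.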
